A study of Mus musculus with 14 samples.

Results

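The genes described here are 42 mouse genes known as drivers of breast cancer or as parts of the growth signalling that breast cancers switch on. They were chosen by name, and rows of protein-coding transcripts under these symbols were taken from the table of each tumour. 41 of the 42 were listed in at least 1 tumour, among 21292 protein-coding gene symbols listed in all. Ccnd1, the cyclin that partners Cdk4 and Cdk6, had no row in any table used here. It was taken as 0 by the counting rule and is not in the counts below, which cover the 41 listed genes.

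The values are numbers of DNA variants per gene, from exome sequencing of 12 mammary tumours that grew from p53null Balb/c mammary tissue, 3 in each of 4 groups. In the gel experiment, 3 to 4 week old wild-type female mice received a gel of collagen 1 and 20% basement membrane extract in a cleared mammary fat pad, followed by a mammary fragment from a p53null donor of 8 to 10 weeks. The collagen was left soft (A1, A2, A3) or was made stiff by crosslinking with 500 mM L-ribose (A7, A8, A9). In the host experiment, p53null fragments went into the fat pads of LysM-Cre mice that were wild-type (WT; B1, B2, B3) or knockout (KO; B4, B5, B6) for Gpx4, an enzyme that removes lipid peroxides. All tumours thus lacked p53 and were taken at a diameter of 2 cm. LysM-Cre acts in myeloid cells such as macrophages, so the knockout lies in host cells and the implanted fragment does not carry it by design. The labels call each tumour a separate sample and do not say whether donors were shared. Soft against stiff addresses tissue tension, and KO against WT addresses oxidative stress, in a study of DNA damage. Gel against host tumours is compared as well, over the same 12 tumours.

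Receptor tyrosine kinases at the cell surface bind growth factors and pass the signal through RAS and the MAP kinases and through PI3K and AKT. Both routes end on the cell cycle, where cyclins and their kinases inactivate the retinoblastoma protein. Inhibitors of Wnt signalling such as Apc, and TGF-beta and Hippo signalling, restrain or redirect this growth in the mammary epithelium. A set of transcription factors and hormone receptors gives the cells of that epithelium their identity. Activating changes in receptors, PI3K and RAS, and inactivating changes in the brakes, are known in breast cancer.

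A protein-altering variant is one that snpEff placed in its HIGH class (frameshift, stop gained, splice donor or acceptor) or MODERATE class (missense, in-frame insertion or deletion). LOW covers synonymous and splice-region changes, and MODIFIER covers introns, UTRs and flanks. Counts are per gene and not per length, so levels of different genes are not compared as rates. The tables give no position, base change, allele fraction or read depth. Inherited differences from the reference genome, changes acquired by the tumour and false calls therefore cannot be told apart, and the same count in 2 tumours does not show the same variant. The whole tumours held 8316 to 16536 protein-altering variants, and A9 and B5 stood apart with 19.9 and 23.1 frameshift variants per 100 missense variants, against 27.7 to 30.8 in the other tumours.

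Protein-altering variants were present in 29 of the 41 listed members (70.7%), beside 11826 of all 21292 listed genes (55.5%). Met, Braf, Egfr and Nf2 had at least 1 in each of the 12 tumours, 4 of 41 members (9.76%) beside 1593 of all genes (7.48%). A further 7 members (17.1%) had one in 6 to 11 tumours, beside 1749 of all genes (8.21%): Erbb3, Erbb4, Fgfr3, Nf1, Apc, Rb1 and Ccne2. In 9 members (21.95%) only a single tumour carried one, beside 3850 of all genes (18.1%). The 12 listed members with 0 protein-altering variants in all 12 tumours were Fgfr2, Akt1, Tsc1, Hras, Nras, Smad4, Myc, Cdk4, Runx1, Cbfb, Foxa1 and Esr1. That is 29.3% of the listed members, beside 9466 of all listed genes (44.5%). The genes at 0 were of several roles. They included the RAS proteins Hras and Nras, the kinase Akt1 and the transcription factor Myc, but also Tsc1, Smad4, Runx1 and Cbfb. Gains of gene copies, a common route for Myc, Erbb2 and cyclin genes, are not measured by these counts.

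**Figure D1:**
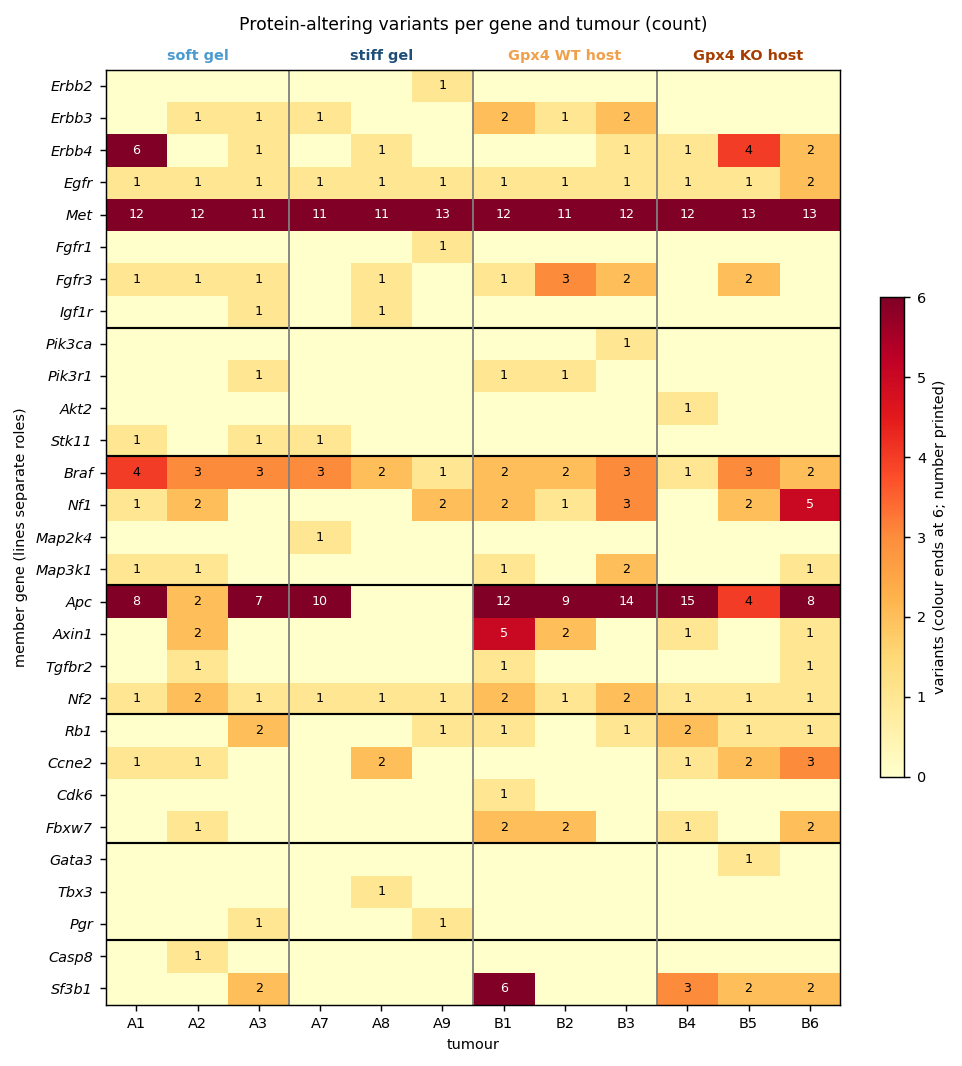
Protein-altering variants (count) of the 29 members that had any, in rows by role, for each of the 12 tumours in columns; colour ends at 6 and the number is printed in each filled cell. Met is at 11 to 13 in every tumour, Apc runs from 0 to 15, and most other cells are empty or hold 1 to 3.

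The 41 members held 424 protein-altering variants when the 12 tumours were summed, and Met alone held 143 of them and Apc 89. The sum per tumour was 37, 31 and 34 in A1, A2 and A3, 29, 21 and 22 in A7, A8 and A9, 52, 34 and 44 in B1, B2 and B3, and 40, 36 and 44 in B4, B5 and B6. B1 was highest, and the stiff-gel tumours A8 and A9 were lowest. Without Met and Apc the sums were 17, 17 and 16 in soft, 8, 10 and 9 in stiff, 28, 14 and 18 in WT-host and 13, 19 and 23 in KO-host tumours.

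**Figure D2:**
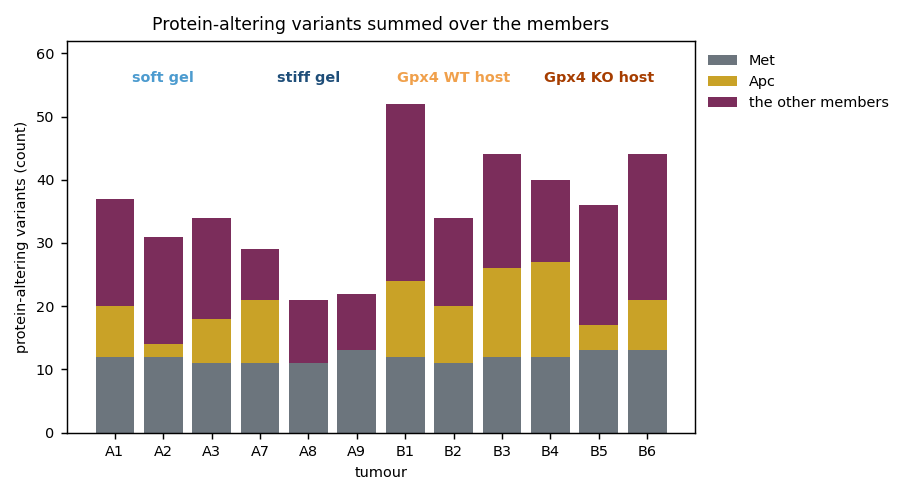
Protein-altering variants (count) summed over the 41 listed members in each tumour, as stacked bars for Met, Apc and the other members. The Met part is nearly level at 11 to 13, while the Apc part is missing in A8 and A9 and reaches 15 in B4.

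By kind, the members' variants were 318 missense, 69 frameshift and 17 stop-gained over the 12 tumours. HIGH-impact variants were 22.6% of the members' protein-altering variants, beside 27.2% over all genes. Without Met the share was 29.9%, above that of all genes. Without Braf, with Met kept, it was 17.0%, below that of all genes. The members had 189 missense variants per 100 synonymous ones, beside 128 over all genes. That ratio rested on Met: without it, the other 40 members had 124 per 100.

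**Figure D3:**
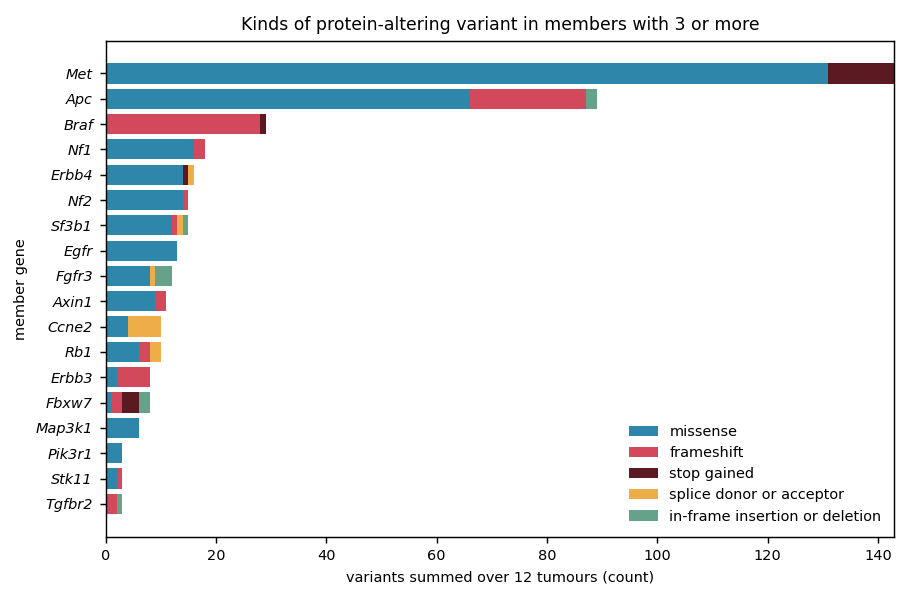
Protein-altering variants summed over the 12 tumours (count) for each member with 3 or more, split by kind. Met is almost all missense, Braf almost all frameshift, and Ccne2 mostly splice donor; a variant with 2 effects is drawn in both, so the bar of Rb1 reaches 10 where its count is 9.

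Among the receptor tyrosine kinases, Met, the receptor of hepatocyte growth factor (ENSMUSG00000009376), was by far the most altered member. In the soft-gel tumours A1, A2 and A3 it had 12, 12 and 11, and in the stiff-gel tumours A7, A8 and A9 it had 11, 11 and 13. In the host experiment it had 12, 11 and 12 in B1, B2 and B3 and 12, 13 and 13 in B4, B5 and B6. All groups overlapped, and the 12 tumours lay between 11 and 13. In each tumour 1 of them was a stop gained and 10 to 12 were missense, while synonymous variants numbered 1 to 4. Few genes shared this: 33 of all listed genes had at least 10 missense variants in every tumour, and 173 had a stop gained in every tumour. The variants lay in 5 of the 6 listed protein-coding transcripts of Met in every tumour.

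Egfr, the epidermal growth factor receptor (ENSMUSG00000020122), had 1 missense variant in 11 tumours and 2 in B6. Its relative Erbb4, a neuregulin receptor (ENSMUSG00000062209), varied far more, with 6, 0 and 1 in A1, A2 and A3 and 0, 1 and 0 in A7, A8 and A9. In the host experiment Erbb4 had 0, 0 and 1 in B1, B2 and B3 and 1, 4 and 2 in B4, B5 and B6. A1 was highest and held 6 missense variants beside 5 synonymous ones. The HIGH-impact variants of Erbb4 were a splice donor change in B5 and a stop gained in B6. Synonymous variants of Erbb4 were found in all 12 tumours, 1 to 5 in each.

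Erbb3, the partner receptor that signals through PI3K (ENSMUSG00000018166), had 0, 1 and 1 in A1, A2 and A3 and 1, 0 and 0 in A7, A8 and A9. It had 2, 1 and 2 in the WT-host tumours B1, B2 and B3 and 0 in all 3 KO-host tumours, so the host groups did not overlap. Of its 8 variants, 6 were frameshifts, in A2, A3, B1, B2 and B3, and no synonymous variant was counted in any tumour. Fgfr3, a fibroblast growth factor receptor, had 1 in each of A1, A2, A3, A8 and B1, 3 in B2, 2 in B3 and B5, and 0 in A7, A9, B4 and B6. Its 1 HIGH-impact variant was a splice donor change in B2, and B2, B3 and B5 each had an in-frame insertion. Erbb2 and Fgfr1 had 1 missense variant each, both in A9. Igf1r, the receptor of insulin-like growth factor, had 1 in A3 and 1 in A8. Fgfr2 had no protein-altering variant in any of the 12 tumours, and 1 synonymous variant in B6.

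The genes that control PI3K, AKT and mTOR carried little. The 6 of them together had 8 protein-altering variants over the 12 tumours, 0 to 2 in each. Pik3ca, the catalytic subunit of PI3K, had 1 missense variant, in B3. Its regulatory subunit Pik3r1 had 1 in each of A3, B1 and B2. Akt2 had 1, in B4. Stk11, which encodes the kinase LKB1 that restrains mTOR, had 1 missense variant in A1 and in A3 and 1 frameshift in A7, and 0 in the other tumours.

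In RAS and MAP kinase signalling, Braf (ENSMUSG00000002413), a kinase that passes the RAS signal to the MAP kinases, was altered in every tumour. It had 4, 3 and 3 in A1, A2 and A3, 3, 2 and 1 in A7, A8 and A9, 2, 2 and 3 in B1, B2 and B3, and 1, 3 and 2 in B4, B5 and B6. Each was of HIGH impact: 28 were frameshifts and 1, in B5, was a stop gained. No missense and no synonymous variant of Braf was counted in any tumour. Among all listed genes, 440 had a frameshift in every tumour, and 16 of those, Braf included, had neither a missense nor a synonymous variant in any. The tables do not allow the frameshifts to be placed, so whether the tumours share them was not tested.

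Nf1, which encodes neurofibromin, a brake on RAS (ENSMUSG00000020716), had 1, 2 and 0 in A1, A2 and A3 and 0, 0 and 2 in A7, A8 and A9. In the host experiment Nf1 had 2, 1 and 3 in B1, B2 and B3 and 0, 2 and 5 in B4, B5 and B6. B6 was highest, the groups overlapped, and the frameshifts were 1 in B3 and 1 in B6. Map3k1 had 1 missense variant in each of A1, A2, B1 and B6 and 2 in B3. Map2k4, the kinase it feeds into, had 1 frameshift, in A7. Hras and Nras had no protein-altering variant in any of the 12 tumours; Hras had 1 synonymous variant, in A9.

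In Wnt, TGF-beta and Hippo control, Apc (ENSMUSG00000005871), the scaffold that marks beta-catenin for destruction, had the second largest count and the widest range. It had 8, 2 and 7 in A1, A2 and A3, 10, 0 and 0 in A7, A8 and A9, 12, 9 and 14 in B1, B2 and B3, and 15, 4 and 8 in B4, B5 and B6. A8 and A9 had none, and B4 had most. Of the 89 variants, 66 were missense and 21 frameshift, the frameshifts being 3, 0 and 1 in A1, A2 and A3, 1, 0 and 0 in A7, A8 and A9, 2, 4 and 3 in B1, B2 and B3, and 1, 3 and 3 in B4, B5 and B6. Synonymous variants of Apc ran from 0 in A8 and 1 in A2 and A9 to 12 in B2 and 15 in B1. They did not follow the missense variants in every tumour: A7, B3 and B4 had 9, 11 and 14 missense and 3 synonymous variants each, while B2 had 5 missense and 12 synonymous. A processed pseudogene of Apc is annotated, with at most 1 MODIFIER variant in a tumour. Others are annotated for Akt2 and Nras, with at most 2, and for Fgfr3, with at most 1. Reads of such a near copy could be counted under either gene, which was not tested.

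Axin1, the second scaffold of that complex, had 2 in A2, 5 in B1, 2 in B2, 1 in B4 and 1 in B6, and 0 in the other tumours. The 2 of B2 were frameshifts and the rest were missense. Nf2, which encodes merlin of the Hippo pathway, had 1 in 9 tumours and 2 in A2, B1 and B3, and its 1 frameshift was in B3. In A1, A3, A7, A8, A9, B2, B5 and B6 the variant of Nf2 was counted in 1 of its 7 listed transcripts, and in B4 in 2. A rule that takes the median over transcripts thus gives 0 in all of these tumours, B4 included. Tgfbr2, a receptor of TGF-beta, had 1 frameshift in A2 and in B1 and 1 in-frame deletion in B6. Smad4, which carries that signal to the nucleus, had 0 protein-altering variants.

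Among the cell cycle genes, Ccne2 (ENSMUSG00000028212), a cyclin E that drives entry into DNA replication, had 1, 1 and 0 in A1, A2 and A3 and 0, 2 and 0 in A7, A8 and A9. It had 0 in all 3 WT-host tumours and 1, 2 and 3 in B4, B5 and B6, so the host groups did not overlap. Splice donor changes made up 6 of its 10 variants, with 1 in A1, 2 in A8, 1 in B4 and 2 in B6. LOW-impact splice-region variants of Ccne2 were found in all 12 tumours, 1 or 2 in each, the WT-host tumours included.

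Rb1, which encodes the retinoblastoma protein, had 2 in A3 and B4, 1 in A9, B1, B3, B5 and B6, and 0 in A1, A2, A7, A8 and B2. Its HIGH-impact variants were 1 in A3, 1 in B1 and 1 in B4. Fbxw7, which marks cyclin E and Myc for destruction, had 1 in A2, 2 in B1, B2 and B6, and 1 in B4. A2, B4 and B6 each held 1 stop gained in Fbxw7, and B2 and B6 each held 1 frameshift. Cdk6 had 1 missense variant, in B1. Myc and Cdk4 had no protein-altering variant in any of the 12 tumours.

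The mammary transcription factors and hormone receptors carried least, with 4 protein-altering variants in 7 genes over the 12 tumours. Gata3, a factor of luminal cell identity, had 1 missense variant, in B5, and Tbx3 had 1, in A8. Pgr, the progesterone receptor, had an in-frame deletion in A3 and a missense variant in A9. Esr1, the oestrogen receptor, and its partner Foxa1 had none, nor had Runx1 and Cbfb, which form a pair. Of the last 2 members, Casp8, an initiator of cell death, had 1 missense variant, in A2. Sf3b1, a splicing factor, had 2 in A3, 6 in B1, 3 in B4, 2 in B5 and 2 in B6, and 0 in the other tumours. A frameshift in A3 and a splice acceptor change in B1 were its HIGH-impact variants, and 12 of its 15 variants were missense.

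Stiff tumours held fewer protein-altering variants in the members than soft tumours. The sums were 29, 21 and 22 against 37, 31 and 34, which did not overlap, with means of 24 ± 4.36 and 34 ± 3 (SD, n = 3 each). The difference of -10 lay between -8.5 and -12.5 when each tumour was left out in turn. Altered members numbered 8, 9 and 9 in stiff and 11, 14 and 14 in soft tumours. Over all genes, the tumours held 10312, 9753 and 8993 protein-altering variants in the stiff and 9908, 11669 and 10669 in the soft group, which overlapped. As a share of each tumour's own total the members' groups overlapped too, at 28.1, 21.5 and 24.5 against 37.3, 26.6 and 31.9 per 10000.

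No single member passed the test of stiff against soft. With 12 members among the 4311 genes tested, those with at least 3 variants over the 6 tumours, edgeR's quasi-likelihood test called 0 members at an adjusted p under 0.05, and over all genes 0 (0%). At an unadjusted p under 0.05 it named 0 members, beside 106 genes in all (2.46%), and DESeq2 named 0 members on either count. The fitted change was below 0 in 9 of the 12 members and nil in 3, which lay above 0 once counts were scaled to each tumour's total, with a median log2 change of -0.72, beside 0 over all genes tested. For Apc it was -0.74 ± 1.30 (SE, adjusted p = 1) and for Braf -0.70 ± 0.363 (SE, adjusted p = 1), and neither passed. Braf held only 1 to 4 variants per tumour, so counting error also limits its test. None of the 12 members had counts that did not overlap between the groups, beside 167 genes (3.87%). Without A7 there were 2 of 10, Braf and Apc, beside 307 of 3903 genes (7.87%), and without A8 there was 1 of 11, Fgfr3, beside 315 of 3994 genes (7.89%).

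KO-host and WT-host tumours overlapped in their sums over the members. The sums were 40, 36 and 44 in KO hosts and 52, 34 and 44 in WT hosts, with means of 40 ± 4 and 43.3 ± 9.02 (SD, n = 3 each), and the groups overlapped. The difference of -3.33 turned to 1 without B1, the tumour with the most variants, and to 6.41 per 10000 as a share of each tumour's total. Of the 5308 genes tested, 15 were members, and edgeR called 0 members and 0 genes (0%) at an adjusted p under 0.05. The median log2 change was -0.21 over the 15 members and -0.31 over all genes tested. For Apc it was -0.37 ± 0.482 (SE, edgeR adjusted p = 1).

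Erbb3 and Ccne2 were the 2 members with an unadjusted p under 0.05, beside 199 genes in all (3.75%), and DESeq2 named 0 members. They were also the 2 whose counts did not overlap between the host groups, beside 265 genes (4.99%). Erbb3 had 5 variants in WT-host tumours and 0 in KO-host tumours (edgeR adjusted p = 1). Ccne2 had 6 variants in KO-host tumours and 0 in WT-host tumours (edgeR adjusted p = 1). With a group at 0 and counts this small, the size of either change is not estimated. Neither passed the adjusted test. The HIGH-impact variants of Erbb3, all frameshifts, did not overlap between the host groups by themselves. Those of Ccne2 did, since B5 had missense variants only, and with missense variants alone 0 members were free of overlap. Without B4 the number of such members was 5 of 15, beside 454 of 4972 genes (9.13%), and without B3 it was 4 of 14, beside 578 of 4874 genes (11.9%).

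Between the 2 experiments, tumours from gels held fewer variants in the members than tumours from LysM-Cre hosts. The sums averaged 29 ± 6.42 and 41.7 ± 6.50 (SD, n = 6 each), and A1 and A3 reached into the range of the host tumours. Gels, host mice and possibly sequencing runs differ together here and cannot be told apart. Totals over all genes also differed, at 8993 to 11669 in gel and 8316 to 16536 in host tumours. As a share of each tumour's total, the members stood at 28.3 ± 5.62 and 33.4 ± 6.53 per 10000 (SD, n = 6 each). Much of the difference lay in Apc, which averaged 4.5 ± 4.37 in gel and 10.3 ± 4.13 in host tumours (SD, n = 6 each), a log2 change of -1.18 ± 0.571 (SE, edgeR adjusted p = 0.451). Without Apc the members' sums averaged 24.5 ± 4.37 and 31.3 ± 5.99.

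Of the 6829 genes tested across the experiments 18 were members, and edgeR called 0 members and 0 genes (0%); DESeq2 called 4 genes, none of them a member. At an unadjusted p under 0.05 edgeR named 3 members, Fbxw7, Sf3b1 and Stk11, beside 739 genes in all (10.8%), and DESeq2 named 0. With the 4 groups kept apart in 1 fit of all 12 tumours, edgeR named 0 members, beside 413 genes. It also named 0 members without A1, B1, B4 or B6, beside 451, 467, 594 and 481 genes. Counts of 14 genes (0.205%) and of 0 members did not overlap. Sf3b1 had 13 variants in host and 2 in gel tumours, a ratio of 6.5 (exact 95% interval 1.47 to 59.3, counting error only; edgeR adjusted p = 0.448). That interval leaves out the spread between tumours: B1 alone held 6 of the host variants, and A3 held the 2 of the gel tumours. Fbxw7 had 7 in host tumours and 1 in gel tumours (edgeR adjusted p = 0.439), a ratio of 7 with an interval from 0.899 to 315.5. Stk11 had 3 in gel tumours and 0 in host tumours (edgeR adjusted p = 0.439). The fitted change was below 0 in 15 of the 18 members and above 0 in 2, with a median log2 change of -0.65, beside -0.34 over all genes tested.

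MODIFIER variants gave larger counts for the members, most of them in introns, which an exome kit does not target. They were tested after the data were seen, scaled to each tumour's total. Between gel and host tumours, 4 of 41 members passed edgeR at an adjusted p under 0.05, beside 604 of 20737 genes (2.91%): Braf and Fgfr2 were higher in gel tumours, and Erbb4 and Egfr lower. With equal library sizes 3 of 41 members passed, without Fgfr2, beside 624 genes (3.01%). Scaling moved the median log2 change of all genes from -0.20 to 0.07, a shift of 0.27.

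Erbb4 had 539, 578 and 574 MODIFIER variants in A1, A2 and A3, 632, 509 and 505 in A7, A8 and A9, 1685, 1187 and 1195 in B1, B2 and B3, and 689, 528 and 1516 in B4, B5 and B6. All 3 WT-host tumours and B6 stood at 1187 or more, while B4 and B5 lay near the gel tumours, so the experiments overlapped. B1, B2, B3 and B6 also had the largest MODIFIER totals, 511609 to 695281, against at most 452463 in the other tumours. As shares of those totals they still stood higher, at 20.13 to 24.23 per 10000. The shares of the experiments overlapped as well, with B4 at 16.11 and B5 at 15.79, against 12.77 to 16.66 in gel tumours. The log2 change, gel over host, was -0.70 ± 0.137 (SE, edgeR adjusted p = 0.0124). Nearly all were intronic, with 499 to 1662 intron variants per tumour.

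Egfr had 57, 46 and 45 in A1, A2 and A3, 49, 36 and 42 in A7, A8 and A9, 109, 99 and 84 in B1, B2 and B3, and 58, 67 and 86 in B4, B5 and B6. Every gel tumour lay below every host tumour, though A1 and B4 differed by 1 variant. As shares the experiments overlapped, with A1 at 1.495 per 10000 and B4 and B6 both at 1.36. Axin1 was the other member whose MODIFIER counts did not overlap, with 9 to 23 in gel and 25 to 41 in host tumours, 2 of 41 members beside 155 genes (0.747%). Its shares overlapped as well. Scaled, the log2 change of Egfr was -0.60 ± 0.134 (SE, edgeR adjusted p = 0.0252). It missed the threshold when A8, A9, B1 or B2 was left out, with log2 changes between -0.55 and -0.58 and edgeR adjusted p between 0.0507 and 0.0597.

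Braf went the other way, with 14, 13 and 10 in A1, A2 and A3, 11, 7 and 6 in A7, A8 and A9, 6, 3 and 3 in B1, B2 and B3, and 1, 5 and 3 in B4, B5 and B6. Gel and host tumours met at 6, in A9 and B1. The log2 change was 1.76 ± 0.362 (SE, edgeR adjusted p = 0.0163), and it passed with each of the 12 tumours left out, as did that of Erbb4. Relative to each tumour's total, Braf stood at 0.261 ± 0.0694 per 10000 in gel and 0.0694 ± 0.0442 in host tumours (SD, n = 6 each).

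Fgfr2, a receptor whose variants are tied to breast cancer risk, had 260, 261 and 277 in A1, A2 and A3, 205, 167 and 209 in A7, A8 and A9, 273, 200 and 155 in B1, B2 and B3, and 182, 144 and 251 in B4, B5 and B6. The counts overlapped, but as shares they were 4.68 to 6.82 per 10000 in gel and 3.03 to 4.31 in host tumours. The scaled log2 change was 0.47 ± 0.115 (SE, edgeR adjusted p = 0.0361). It missed the threshold at equal library sizes, with a log2 change of 0.19, and when A1, A3, A9, B1, B2, B3 or B6 was left out, with log2 changes of 0.40 to 0.50 and edgeR adjusted p of 0.0569 to 0.087. The number of members past the threshold was 2 without A9, B1 or B2, where 298 (1.44%), 236 (1.15%) and 285 genes (1.38%) passed. Without B5 it was 6, with Nras and Tgfbr2 added, beside 1273 genes (6.16%), and without both A9 and B5 it was 4, beside 851 genes (4.15%).

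**Figure D4:**
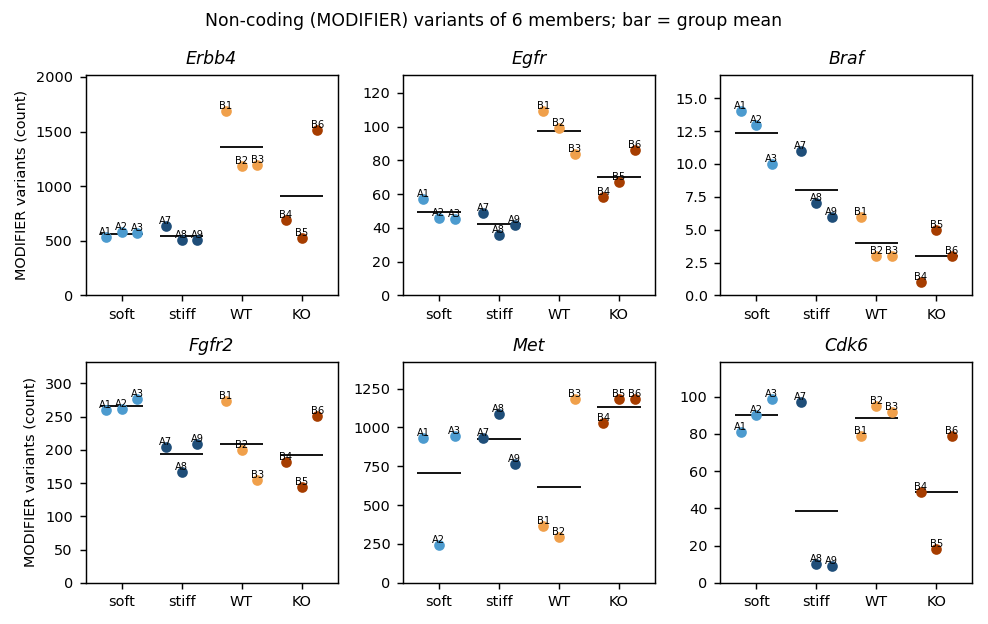
MODIFIER variants (count) per tumour for 6 members, by group, each point a tumour and each bar the mean of 3 tumours. The means of Erbb4 and Egfr are higher in host tumours and that of Braf in gel tumours. For Erbb4, B4 and B5 lie near the gel tumours, and for Braf, A9 and B1 are both at 6. Met is low in A2, B1 and B2 and Cdk6 in A8, A9 and B5, across the groups.

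Within the experiments no member passed on scaled MODIFIER counts. For stiff against soft edgeR called 0 of 40 members and 0 of 19505 genes (0%), with 5 members (12.5%) at an unadjusted p under 0.05, beside 1413 genes (7.24%). For KO against WT it called 0 of 40 members and 26 of 19312 genes (0.135%), with 3 members (7.5%) at an unadjusted p under 0.05, beside 1007 genes (5.21%). MODIFIER counts of stiff and soft tumours did not overlap in 8 members, beside 1924 genes (9.86%): Fgfr2, Igf1r, Pik3r1, Map3k1, Smad4, Rb1, Gata3 and Esr1. All 8 were lower in stiff tumours, beside 1586 genes (8.13%), and the tumours' MODIFIER totals were lower there as well, at 335381 to 379256 against 381204 to 452463. As shares of those totals, 7 members did not overlap, beside 2815 genes (14.4%), and 4 of them, Igf1r, Pik3r1, Map3k1 and Gata3, were lower in stiff tumours, beside 1098 genes (5.63%). Igf1r had 59, 99 and 48 in soft and 32, 41 and 13 in stiff tumours.

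Met split the tumours in a way that no group follows. Its MODIFIER counts were 929, 244 and 947 in A1, A2 and A3, 929, 1088 and 767 in A7, A8 and A9, 364, 296 and 1184 in B1, B2 and B3, and 1030, 1181 and 1185 in B4, B5 and B6. A2, B1 and B2 thus held 244 to 364 and the other tumours 767 to 1185. The same 3 tumours were lowest for intron variants of Met, at 229 to 353 against 717 to 1092, for 3' UTR variants, at 3 against 7 to 18, and for variants upstream, at 27 to 34 against 59 to 84. The protein-altering variants of Met were no fewer there, at 12, 12 and 11. The next genes on one side of Met were low in these tumours too: Capza2 had 23 to 26 there against 74 to 131, and St7 had 66 to 87 against 228 to 487. Wnt2, the next after them, had 53 to 76 there but also 41 in B3. On the other side Cav1 had 8 to 18 there, a range that tumours such as A1 and A3 shared.

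**Figure D5:**
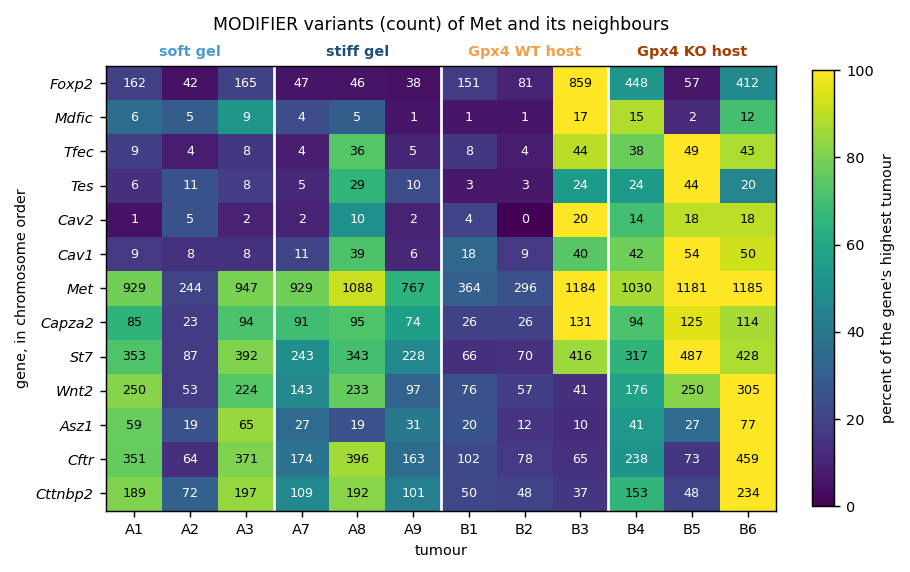
MODIFIER variants (count, printed) of Met and of the 6 protein-coding genes on either side in chromosome order, for the 12 tumours; colour is the percent of each gene's highest tumour. A2, B1 and B2 are dark from Met through Capza2 and St7, where the other tumours are not.

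Cdk6, a kinase that inactivates the retinoblastoma protein with D cyclins, split the tumours along another line. It had 81, 90 and 99 MODIFIER variants in A1, A2 and A3, 97, 10 and 9 in A7, A8 and A9, 79, 95 and 92 in B1, B2 and B3, and 49, 18 and 79 in B4, B5 and B6. A8, A9 and B5 held 9 to 18, B4 held 49, and the other tumours 79 to 99. Variants downstream of Cdk6 were also few in A8, A9 and B5, at 2 to 8 against 35 to 60 in the other tumours. Both A9 and B5 are the tumours with low frameshift shares, which A8 does not share at 30.8 per 100 missense variants; their part in the result was not tested.

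Other genes of the same pathways were counted in 9 lists with 183 genes. Protein-altering variants were present in 121 of the 183 (66.1%), beside 55.5% of all listed genes. Of the 183, 14 had one in every tumour, beside 1593 of all 21292 listed genes (7.48%). edgeR called 0 of 38 tested for stiff against soft, 0 of 55 for KO against WT and 0 of 63 for gel against host tumours, with 0, 2 and 13 at an unadjusted p under 0.05. Over all genes tested, 2.46%, 3.75% and 10.8% had an unadjusted p under 0.05 in these comparisons. Among ligands, receptors and adaptors, 17 of 30 were altered, led by Pdgfrb with 1 to 8 per tumour and Fgfr4 with 1 to 4. In the PI3K, AKT and mTOR list, 18 of 25 were altered, led by Tsc2, the partner of the member Tsc1, with 16 to 30 per tumour and Mtor with 8 to 22. In the RAS and MAP kinase list 14 of 25 were altered, and Rasa2 had 1 to 4 and Rasal2 0 to 4. In the Wnt list 14 of 23 were altered, with Lrp6 at 4 to 13 and Dvl1 at 3 to 6. In the TGF-beta list 7 of 14 were altered, with Smad2 at 0 to 4 and Tgfbr3 at 0 to 3.

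Cell cycle genes outside the members were altered in 13 of 20 cases. Ccne1, the other cyclin E, had 21 to 32 protein-altering variants in 10 tumours but 1 in A9 and 0 in B5, while Rbl2 had 0 to 6. Its relative Ccne2 among the members showed no such split, with 0 in A9 and 2 in B5. Transcription factors and hormone genes were altered in 18 of 20 cases, with Greb1 at 1 to 10. In the Hippo and LKB1 list 10 of 12 were altered, with Lats1 at 0 to 4 and Stk3 at 1 or 2. In the list of apoptosis and splicing genes 10 of 14 were altered, with Prpf8 at 1 to 6 and Fadd at 0 to 3.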

How the data were processed

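The deposited files are per-tumour snpEff tables of whole-number variant counts per transcript, per the file headers. Per the submitters' processing notes, the authors used BWA 2.2.1, SAMtools 1.19.2, GATK and build GRCm39. Variant filters and any use of the 2 tails, which were not analysed here, are not stated in the labels or headers.

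A gene's count was the maximum over its protein-coding transcripts in each impact class, and 0 where unlisted. A variant in overlapping genes counts in each. Genes whose counts summed to 3 or more in the tumours of a comparison entered edgeR 4.0.16 (R 4.3.3). Its quasi-likelihood test was run with library sizes set equal, and p-values were adjusted by Benjamini-Hochberg across the genes entered, with a threshold of 0.05. DESeq2 1.42.0 was an alternative. MODIFIER counts were scaled to each tumour's total with TMM factors. The SE is the log2 change over the square root of F, an approximation. Scripts were tested on simulated data. Changes were simulated only in genes with larger protein-altering counts than most members hold, so detection in low-count members was not tested. A RefSeq table of another build gave only the order of neighbouring genes; 42 symbols matched it.

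Values were printed for members altered in at least 6 tumours, with a HIGH-impact variant, with groups free of overlap, or among the 5 with most coding variants. The members and lists were chosen with earlier results of these data known. Alternatives changed impact classes, transcripts, filter, scaling, tool, members and tumours. The p-values cover only these tumours: they rest on the spread between them and, at low counts, on counting error. Read depth is unknown. The values of 1 pathway gene outside the members are not reported here.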

Additional observations from a re-analysis of the deposited data

How the results depend on the processing

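No member was called on protein-altering counts in any of the 3 comparisons under any alternative run. The summed difference of stiff minus soft was -15.3 with LOW-impact variants, -5.67 with missense alone and -3.33 with HIGH impact alone, and -8.5 to -12.5 with each tumour left out. KO minus WT was 0.667 with the median over transcripts, 6.41 per 10000 variants of the tumour, and -8 to 1 with each tumour left out, turning to 1 without B1. Gel minus host was -19.8 with LOW-impact variants, -3.33 with HIGH impact alone, -5.09 per 10000, and -14.3 to -10.6 with each tumour left out. These move partly because fewer or more variants are counted. The number of altered members, 29, was 27 to 29 with each tumour left out. Members called on MODIFIER counts between gel and host tumours, 4, numbered 2 to 6 with each tumour left out, while calls over all genes ran from 236 to 1273; that measure was chosen after seeing the data, as was leaving out A9 and B5. No paired analysis was possible because tumours carry no shared replicate number. Depth behind a count is unknown, so a gene at 0 may not have been covered.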
